A study of Mus musculus with 2 samples.

Results

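Replication-dependent histone genes encode the linker histone H1 and the core histones H2A, H2B, H3 and H4, which package newly made DNA. They lie in clusters on a few chromosomes, most have no introns, and most of their mRNAs end in a stem-loop bound by the protein SLBP instead of a poly(A) tail. Their transcripts accumulate in S phase and are degraded when DNA synthesis stops, so in postnatal brain they are best known from dividing progenitors, among them those that supply the olfactory bulb (OB) with new interneurons. Some cluster members are also made in cells that no longer divide. One is Hist2h2be, which encodes the H2B variant H2BE and is known in mice from olfactory sensory neurons, where its level depends on odor-driven activity. Hist1h1t, Hist1h2aa and Hist1h2ba encode histones of the testis.

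The genes were chosen by name, as those whose symbol follows the Hist1h to Hist4h cluster nomenclature. The array annotation mostly carries the newer symbols, so that only 3 genes matched as written, and the older names were therefore looked up among the RefSeq synonyms. By this route 30 histone genes had at least 1 probe set (a group of short probes summarized as 1 value) that named no other gene, out of 30098 genes measured in this way. RefSeq listed 70 genes of this nomenclature. The other 40 genes were named only by probe sets that listed several genes at once. There were 39 such probe sets, and they were kept apart. By name, 5 of the 30 genes belong to the H1 family, 11 to H2A, 9 to H2B, 3 to H3 and 2 to H4. Histone cluster 1 on chromosome 13 held 23 of them, cluster 2 on chromosome 3 held 6, and cluster 3 on chromosome 11 held 1. RefSeq classes 3 of the 30 genes as pseudogenes (H2ac14, H2af-ps2 and H2bu1-ps).

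RNA from the OB of C57BL/6J offspring at postnatal day 28 was compared between a PBS group and an OVA group. Dams of both groups received the adjuvant alum without antigen, and the animals then inhaled an aerosol of either phosphate-buffered saline or 2.5% ovalbumin in saline, for 30 minutes 3 times per week. Each group was measured on 1 whole-transcript array carrying RNA pooled from 4 animals, so the arrays had no replicate. No test was possible, no error can be attached to any difference, and a difference between the groups cannot be told apart from one between the pools or arrays. Sample labels call the animals female while the methods describe male offspring. In both pools the Y-linked genes Eif2s3y (log2 intensity 11.79 in PBS, 11.58 in OVA), Kdm5d (10.49 and 10.40) and Uty (11.36 and 11.38) gave signal, and Xist, the X-inactivation RNA, was at 6.39 and 6.49 beside array medians of 6.89 and 7.10.

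All values below are log2 intensities, taken from intensities deposited on a linear scale, and a difference is the OVA value minus the PBS value. A log2 intensity reflects the probes as well as the RNA, so levels are compared between arrays for the same gene and not between genes. Over all 65956 probe sets the mean difference was 0.18 and the SD 0.36. The z-score of a gene is its difference minus this mean, divided by this SD, and a gene was counted as higher at a z-score of 2 or more and as lower at -2 or less. These limits lay at differences of 0.90 (1.87-fold higher) and -0.55 (1.46-fold lower).

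None of the 30 histone genes passed either limit. Over all genes measured, 2.57% passed as higher and 1.66% as lower, so a list of this length would hold few such genes at the background rate. The median difference of the histone genes was -0.10, against 0.07 for all genes, and their differences ran from -0.53 (H2bc21) to 0.47 (H2bc12). With the pseudogenes left out, the median of the remaining 27 genes was -0.09. In 20 of the 30 genes the OVA value was below the PBS value, compared with 11667 of all 30098 genes. Of the 30 histone genes, 22 lay below the median difference of all genes. Relative to the mean of all probe sets, 25 of 30 (83.3%) lay below it, compared with 64.4% of all genes. The histone genes therefore sat somewhat below the center of the array as a group, by 0.17 at the median, without a single gene reaching the limit in either direction.

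The zero point of these differences depends on the scaling of the arrays, because the OVA array was brighter as a whole. Quantile normalization moved the median difference of all genes from 0.07 to -0.10 and that of the histone genes to -0.24. Centering the differences by signal (loess) gave -0.06 for all genes and -0.23 for the histone genes. The difference was below 0 in 25 histone genes under either scaling, which after loess centering means below the trend at their signal. The gap between the histone median and the median of all genes was -0.14 after quantile normalization and -0.16 after loess centering.

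**Figure D1:**
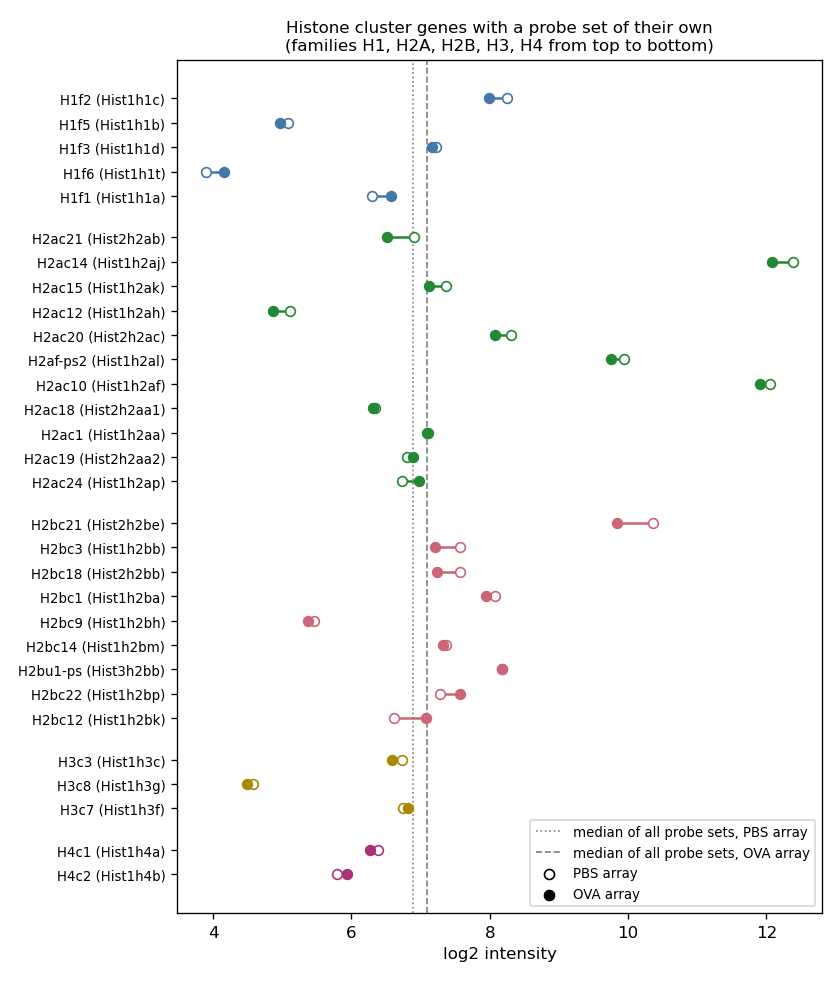
Log2 intensity (x axis) of the 30 histone cluster genes (y axis, grouped by family) on the PBS array (open circles) and the OVA array (filled circles), 1 array per group, with the median of all probe sets on each array as vertical lines. H2bc21 shows the longest shift to lower values (10.36 to 9.83) and H2bc12 the longest to higher values (6.61 to 7.07).

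The differences also depended on signal across the array. Among all genes with a signal above the gene median, the median difference was -0.05, and among the remaining genes it was 0.15. The 12 histone genes in the first class had a median difference of -0.21 and the 18 in the second -0.05. Histone genes were thus below the median of all genes in either class. The plot of difference against signal shows the histone genes inside the cloud of all genes.

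**Figure D2:**
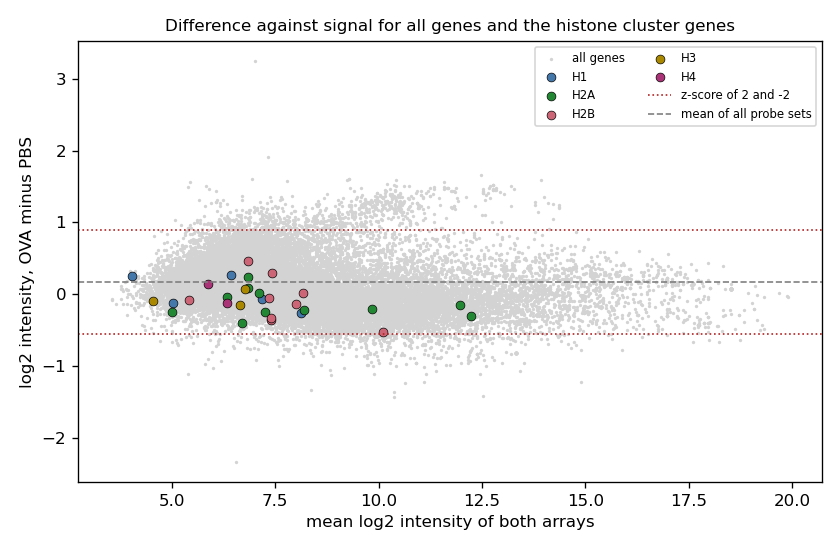
Difference between the OVA and PBS arrays in log2 intensity (y axis) against the mean log2 intensity of both arrays (x axis) for all 30098 genes (grey) and the 30 histone genes (colored by family). All histone points lie between the dotted lines at z-scores of 2 and -2, and 25 of them lie below the dashed mean of all probe sets.

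The H2B genes, whose products pair with H2A in the nucleosome core, spanned the widest range. H2bc21 (Hist2h2be, encoding H2BE) was at 10.36 in the PBS group and 9.83 in the OVA group, a difference of -0.53 or 1.44-fold lower. Its z-score was -1.94, just inside the limit, and 1.92% of all genes had a difference as low or lower. H2bc21 passed the lower limit when median and median absolute deviation replaced mean and SD in the z-score (-2.21). On that scale 3.01% of all genes passed as lower. H2bc21 lay at -1.32 when compared only with the 1000 probe sets nearest in signal. H2BE is known from olfactory sensory neurons, whose axons enter the OB, and 12 markers of these neurons were therefore read as well. This list was added after the value of H2bc21 had been seen. None of the 12 passed a limit and their differences ran from -0.36 to 0.22, with a median of 0.02. Of the 12, 7 had a signal above the gene median. The dimmest, Rtp2 (4.43 in PBS) and Rtp1 (4.92), lay below the lower quartile of the PBS array (5.96). Probes near background cannot show a lower level, which limits this median. Stoml3, a membrane protein of these neurons, had the lowest difference of the list (11.73 in PBS and 11.37 in OVA, -0.36), followed by Gnal, the G protein subunit of odorant signaling (10.12 and 9.81, -0.31). Omp, the olfactory marker protein, was at 8.31 in PBS and 8.21 in OVA, and S100a5, a calcium-binding protein of these neurons, was at 11.47 on both arrays. The part of these axons in the H2bc21 value was not tested.

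At the other end, H2bc12 (Hist1h2bk) was at 6.61 in the PBS group and 7.07 in the OVA group, 1.38-fold higher, with a z-score of 0.80. It remained the highest histone gene after quantile normalization (0.26) and loess centering (0.27). H2bc22 (Hist1h2bp) came next with 7.28 and 7.57, a difference of 0.29. H2bc3 (Hist1h2bb) and H2bc18 (Hist2h2bb) were lower in the OVA group, by 1.28-fold (7.57 to 7.21) and 1.26-fold (7.58 to 7.24). The other 4 H2B genes ran from -0.13 to 0.01. The 9 H2B genes had a median difference of -0.08.

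The 11 H2A genes had a median difference of -0.20, and 8 of them were lower in the OVA group. H2ac21 (Hist2h2ab) was at 6.91 in the PBS group and 6.51 in the OVA group, 1.32-fold lower, with a z-score of -1.58. Compared with the 1000 probe sets nearest in signal its z-score was -2.10, which passes the lower limit. On that scale 302 of all 30098 genes passed as lower. The probe sets for the pseudogene H2ac14 (12.38 and 12.08) and for H2ac10 (Hist1h2af, 12.05 and 11.91) had differences of -0.30 and -0.15. H2ac15 (Hist1h2ak) was at 7.37 in PBS and 7.12 in OVA. H2ac24 (Hist1h2ap), at 6.73 and 6.97, had the highest difference of the family at 0.25, followed by H2ac19 (Hist2h2aa2) at 0.08.

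Linker histones, which bind DNA between nucleosomes, went both ways. H1f2 (Hist1h1c), one of the H1 genes made in many tissues, was at 8.26 in the PBS group and 7.99 in the OVA group, and H1f5 (Hist1h1b) was at 5.09 and 4.97. The signal of H1f5 was above that of only 2.09% of genes. H1f3 (Hist1h1d) was at 7.22 and 7.16. H1f1 (Hist1h1a) was higher in the OVA group, at 6.30 and 6.57. The median of the 5 H1 genes was -0.06.

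Few H3 and H4 genes had a probe set of their own. H3c3 (Hist1h3c) was at 6.73 in PBS and 6.59 in OVA, H3c8 (Hist1h3g) at 4.58 and 4.49, and H3c7 (Hist1h3f) at 6.74 and 6.81. H4c1 (Hist1h4a) was at 6.39 and 6.27. H4c2 (Hist1h4b) was at 5.80 and 5.94, and it alone had a pair of probe sets, with differences of 0.12 and 0.17. All 5 of these genes lay below the mean of all probe sets. The signal of H3c8 was above that of only 0.41% of genes.

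Of the testis histones, H1f6 (Hist1h1t) was at 3.90 in the PBS group and 4.15 in the OVA group, a signal above that of only 0.07% of genes. H2ac1 (Hist1h2aa) was at 7.09 and 7.11, and H2bc1 (Hist1h2ba) at 8.07 and 7.94. Their differences were 0.25, 0.02 and -0.13. A list of 15 germ cell markers had a median difference of 0.25, and none of them passed a limit. Sycp3, a protein of the meiotic chromosome axis, had the highest difference of that list at 0.62.

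By cluster, the 6 genes of cluster 2 had a median difference of -0.28, and H2bc21, H2ac21, H2bc18, H2ac20 and H2ac18 were lower in the OVA group while H2ac19 was higher. The 23 genes of cluster 1 had a median of -0.09, with 15 below 0. H2bu1-ps, the gene of cluster 3, differed by 0.01. Cluster 2 remained the lower of the pair after quantile normalization (-0.43 against -0.24) and loess centering (-0.40 against -0.21). Without replicates, this gap between 6 and 23 genes could not be tested.

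**Figure D3:**
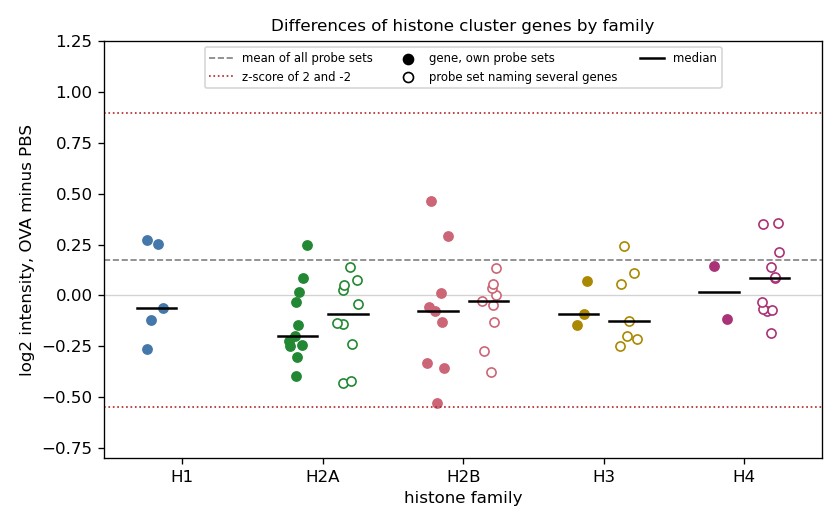
Difference between the OVA and PBS arrays in log2 intensity (y axis) by histone family (x axis) for genes with their own probe sets (filled circles) and for the 37 probe sets that name several genes of 1 family (open circles), with medians as black bars. Every point lies between the dotted lines at z-scores of 2 and -2, and the H4 probe sets naming several genes reach the highest value of the open circles at 0.36.

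The 39 probe sets that named several genes covered, among others, the 40 genes without a probe set of their own. Of these, 38 named histone cluster genes only, and 1 also named Trim17. None passed a limit, against 4.37% of all probe sets that passed as higher and 1.15% as lower. Their median difference was -0.03, which was 0.17 below the median of all probe sets, and 21 of the 39 were below 0. Relative to the median of all genes the gap was -0.10. The lowest values came from H2A of cluster 2. A probe set naming H2ac18 and H2ac19 went from 10.08 in PBS to 9.66 in OVA (-0.42), and a second, which also named H2af-ps2, went from 9.97 to 9.54 (-0.43). The probe sets that named these genes singly differed by less, with H2ac18 at -0.03, H2ac19 at 0.08 and H2af-ps2 at -0.20. The same pair of genes thus gave differences near 0 in probe sets of their own and of -0.42 and -0.43 in shared ones.

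The 11 probe sets that named the same 13 H4 genes had differences from -0.19 to 0.36 with a median of 0.09. This median was above 0 but below that of all probe sets, which was 0.14. Of the 11, 8 lay below the mean of all probe sets, compared with 55.4% of all probe sets. The 11 shared these gene names but not their signal, which ran from 5.26 to 11.94 in PBS. The probe set placed first at H4c12 was at 9.47 in PBS and 9.83 in OVA, and that placed at H4c3 at 9.47 and 9.82. That at H4c14 went from 8.96 to 8.78. The SD among these 11 differences was 0.18. The sign of the H4 median depended on scaling, being -0.12 after quantile normalization and -0.09 after loess centering. It was nevertheless the highest median of the 4 core histones among these probe sets in each case.

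The extent of this variation differed among the other groups of probe sets with identical gene names. The 6 that named the same 10 H2A genes ran from -0.24 to 0.14 (SD 0.14), and the 4 that named the same 4 H2B genes from -0.27 to 0.04 (SD 0.13). The 4 for the same 8 H3 genes ran from -0.20 to 0.11 (SD 0.15). The 3 for the same 4 H3 genes ran from -0.25 to 0.24 (SD 0.27). A pair naming H2bc4, H2bc6 and H2bc8 gave -0.38 and -0.03, and a pair naming the same 6 H2B genes gave 0.06 and 0.13 (SD 0.053). These SDs are spreads among probe sets on 1 pair of arrays and contain no variation between animals. Whether probe sets with identical gene names read the same RNA was not tested.

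Promoter sequences are shown for 4 genes. H2bc12 and H2ac24 had the highest H2B and H2A differences, and H2bc3 and H2ac21 the lowest among genes with a promoter sequence at hand. H2bc21, the lowest H2B gene, had none. Each run is the 200 bases before the gene start on the gene's own strand, from RefSeq on GRCm38.p6. Capitals mark matches on either strand to the TATA box core TATAAA, to the CCAAT box and to the octamer ATTTGCAT, an element known from H2B promoters. None of these 3 motifs contains another.
H2bc12 (chr13:22035621-22035820, plus strand): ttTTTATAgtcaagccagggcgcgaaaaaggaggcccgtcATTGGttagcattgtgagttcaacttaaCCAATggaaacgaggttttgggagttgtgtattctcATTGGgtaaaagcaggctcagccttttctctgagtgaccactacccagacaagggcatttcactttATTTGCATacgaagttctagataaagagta
H2ac24 (chr13:21833476-21833675, minus strand): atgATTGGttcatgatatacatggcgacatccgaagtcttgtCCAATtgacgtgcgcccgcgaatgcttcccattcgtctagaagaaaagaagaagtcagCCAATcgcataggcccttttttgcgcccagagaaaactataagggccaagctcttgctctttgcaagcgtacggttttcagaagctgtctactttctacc
H2bc3 (chr13:23746534-23746733, plus strand): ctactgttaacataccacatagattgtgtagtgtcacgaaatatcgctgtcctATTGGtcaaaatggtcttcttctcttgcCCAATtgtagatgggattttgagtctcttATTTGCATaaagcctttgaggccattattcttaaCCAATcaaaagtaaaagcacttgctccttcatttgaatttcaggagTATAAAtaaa
H2ac21 (chr3:96219685-96219884, plus strand): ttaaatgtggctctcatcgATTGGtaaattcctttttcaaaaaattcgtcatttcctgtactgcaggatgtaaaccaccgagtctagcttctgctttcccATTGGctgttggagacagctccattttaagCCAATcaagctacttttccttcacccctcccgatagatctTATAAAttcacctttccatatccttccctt

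Each of the 4 sequences held 3 CCAAT boxes. The octamer was found in H2bc12 and H2bc3, which are both H2B genes but differed by 0.47 and -0.36. A TATA box core was found in H2bc12, H2bc3 and H2ac21 but not in H2ac24. Windows from 250 bases before to 50 bases after the start were held for 25 of the 30 genes. Of these 25 windows, 56.0% contained TATAAA, 96.0% CCAAT and 32.0% the octamer, compared with 13.6%, 37.4% and 1.74% of all 32851 windows. The octamer was found in 7 of 17 H2B and 7 of 18 H2A windows of the whole nomenclature and in none of the H1, H3 and H4 windows. CCAAT was found in 3 of 12 H4 windows and in all windows of the other families. A match describes the letters and not a bound factor.

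The differences of genes with and without a motif overlapped. The 8 genes with the octamer had differences from -0.36 to 0.47 with a median of -0.18, and the 17 without it from -0.40 to 0.29 with a median of -0.08. With TATAAA the median was -0.12 over 14 genes and without it -0.08 over 11. Histone genes often lie head to head, and 10 such pairs of H2A and H2B genes had starts at most 500 bases apart. Both genes had their own probe set in 2 pairs. H2ac12 and H2bc12 start 178 bases apart. Most of the sequence printed for H2bc12 lies between these starts, except its first bases with the marked TATA match, which lie past the H2ac12 start. H2ac12 was at 5.12 in PBS and 4.87 in OVA (-0.25) while H2bc12 was 0.47 higher. The signal of H2ac12 was above that of only 1.89% of genes, so its difference may not reflect its RNA. H2bc1 and H2ac1, which start 281 bases apart, differed by -0.13 and 0.02.

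Variant histones outside the Hist1h to Hist4h nomenclature were read for comparison, under the label replication-independent histones, and 8 of 11 listed genes had their own probe set. Whether each of them is made outside S phase was not tested. H2ax, the H2A variant phosphorylated at DNA breaks, was lower in the OVA group (7.25 to 6.69, a difference of -0.56 with a z-score of -2.02), and none of the others passed a limit. Over all genes 1.66% were past the lower limit. H2az1 and H2az2, which mark promoters, both differed by -0.10, and Cenpa, the H3 variant of centromeres, by 0.34. The median of the 8 was -0.16. With mean and SD over single-gene probe sets alone, H2ax lay inside the limit (z-score -1.89). The replacement histone genes H3f3a and H3f3b were named only by probe sets listing 6 genes, which both differed by -0.04.

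Genes that make and remove histone mRNA also lay below the center. Of 16 measured genes for its 3′ end processing and decay none passed a limit, the median was -0.19, and all 16 lay below the mean of all probe sets. Slbp, the stem-loop binding protein, was at 7.86 in PBS and 7.92 in OVA, and the lowest gene was Srrt, a factor that links the cap-binding complex to RNA processing, at -0.42. None of 14 genes for histone gene transcription passed, with a median of -0.10 and all 14 below that mean. Of all genes, 64.4% lay below that mean. Among genes with a signal above the gene median it was 74.1%, and 13 of the 16 and 11 of the 14 belong there. Npat, the coactivator at histone loci, was at 11.26 and 11.22, and Hinfp, which binds H4 promoters, was at 7.56 and 7.23. The 16 measured histone chaperones and assembly factors had a median of -0.09 and none passed, with Supt6 lowest at -0.39.

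Genes of the cell cycle stages in which these histones are made were nearer to the median of all genes. The 17 measured S phase genes had a median difference of 0.07, and none passed a limit. Pcna, the sliding clamp of DNA polymerase, was at 11.45 in PBS and 11.49 in OVA, while Rrm1, a subunit of ribonucleotide reductase, was the lowest at -0.34. The 18 measured genes of G2 and mitosis had a median of 0.10, also with none past a limit. Mki67 was at 7.99 and 7.85, Top2a at 7.04 and 7.14, and Bub1 had the highest difference at 0.49. The histone median was below that of both cell cycle lists. Signal was above the gene median in 6 of the 17 S phase genes and 3 of the 18 G2 and mitosis genes. The same held for 12 of the 30 histone genes. Among all genes at or below that signal the median difference was 0.15, and both cell cycle medians lay below it.

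**Figure D4:**
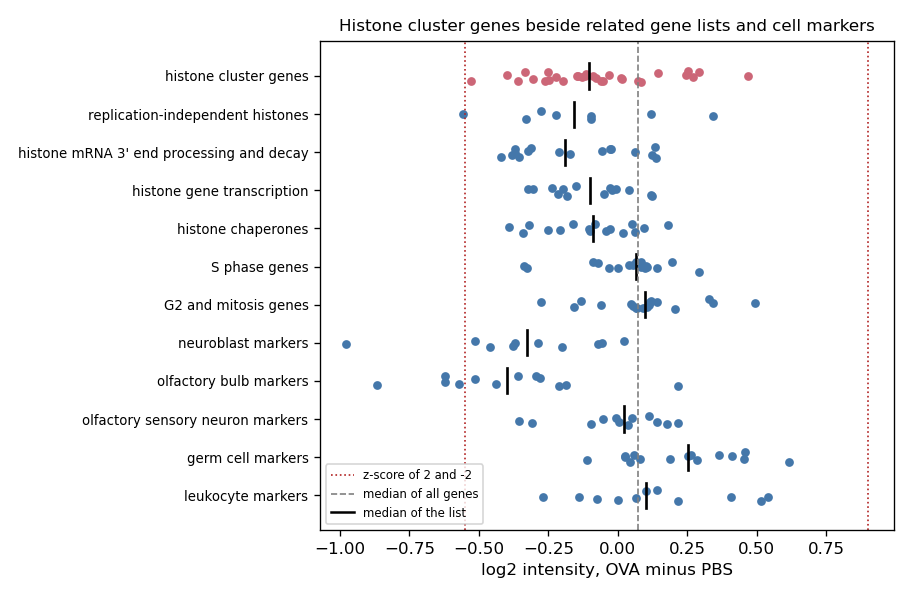
Difference between the OVA and PBS arrays in log2 intensity (x axis) for the histone cluster genes (red) and for 11 related gene lists and marker lists (blue), 1 point per gene with its own probe sets and a black bar at each list's median. The medians run from -0.40 for OB markers to 0.25 for germ cell markers, and the only points past a dotted line are H2ax, Tubb3 and 4 OB markers.

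Markers of the tissue differed by more than the histone genes. Of 12 measured OB markers 4 were past the lower limit, namely Cdhr1 of mitral and tufted cells (-0.87), Gad1 of GABAergic neurons (-0.62), Th of dopaminergic periglomerular cells (-0.62) and Slc17a7 of glutamatergic neurons (-0.57). The median of that list was -0.40. Over all genes 1.66% were past the lower limit. Among genes with a signal above the gene median, where 11 of the 12 markers lie, it was 454 of 15049. All 12 markers ran from -0.87 to 0.22, and none of the 4 passed when compared with the probe sets nearest in signal. Among 10 neuroblast and immature neuron markers Tubb3 was lower (12.22 to 11.25, z-score -3.18), and the median was -0.33. The 11 measured leukocyte markers had a median of 0.10 with none past a limit, and S100a8 was highest at 0.54. Fewer cells of a type and less RNA per cell cannot be told apart in pooled tissue, and the part of these shifts in the histone values was not tested.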

How the data were processed

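Total RNA of the OB was hybridized to 2 whole-transcript (Clariom D) arrays, 1 per group, each a pool of 4 animals. The deposited table holds intensity per probe set on a linear scale, which the authors computed with Affymetrix Expression Console 1.4.1 by a form of RMA, a method that corrects background, normalizes and summarizes the probes. The log2 of these deposited values was taken here. The conflicting RNA purification kits of labels and methods were not resolved. Of the 65956 probe sets, the platform annotation names 1 gene for 30638, several for 2176 and none for 33142. Symbols were updated through RefSeq (GRCm38.p6) synonyms, which changed 330 of them. A gene value is the mean log2 intensity of its single-gene probe sets. Even these may bind near-identical copies, which was not tested. The z-score limits follow the study's methods, while the mean and SD over all probe sets were chosen here. Array number limits the precision, and p-values were not computed.

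Named genes were every histone gene past a limit, the 3 highest, 3 lowest and 3 of highest signal per family, the testis members, and for each related list the genes past a limit or the one farthest from 0 (Stoml3 for the sensory neuron list added later), and Slbp, Npat, H3f3a, H3f3b, H2ax, H2az1, H1f0 (no probe set of its own used here), Mki67, Top2a and Pcna. The other genes named, such as H2az2, Cenpa, Omp, S100a5, Gnal, Rtp1, Rtp2 and H2ac12, were chosen after their values were seen. The histone genes, lists and rules were chosen with earlier results of these data known. Alternatives changed the z-score scale, threshold, signal filter, normalization (quantile, or loess with span 0.2) and gene summary. The scripts were tested on simulated data. Python 3.11.15, numpy 2.4.6, pandas 2.3.3, statsmodels 0.14.6 and matplotlib 3.10.9 were used.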

Additional observations from a re-analysis of the deposited data

How the results depend on the processing

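No paired analysis was possible because each group had 1 array, and for the same reason no replicate could be left out. Between 0 and 1 of the 30 histone genes passed the lower limit and 0 the higher, under the 8 alternatives. The lower count was 1 with the signal-dependent z-score (H2ac21) and 1 with the median and median absolute deviation (H2bc21). Among all 30098 genes, 302 and 906 passed as lower on these scales. The histone median stayed below that of all genes in every alternative, with a gap between -0.10 and -0.20 on the log2 scale. The smallest gap came from the 3 genes whose symbols matched as written and the other end from adding the several-gene probe sets, there relative to all probe sets, both chosen after seeing the data. After quantile normalization the H3 median was -0.057 relative to all genes, against -0.16 before. After loess centering the H2A median was -0.16 relative to all genes against -0.27 before, and that of the histone gene transcription list -0.061 against -0.17. OB markers past the lower limit numbered 4, but 0 with the signal-dependent z-score, 1 with bright probe sets only and 0 at a 2-fold threshold. Neuroblast markers numbered 1, but 2 with the median absolute deviation, 2 after quantile normalization and 0 at 2-fold. H2ax was the variant histone past the limit, and the count was 0 with the mean and SD of single-gene probe sets, 0 with bright probe sets only, where H2ax is left out, and 0 at 2-fold. The causes were not tested, apart from the stricter limit at 2-fold. With bright probe sets only, 15 histone genes and no H3 or H4 gene were left. Depth has no counterpart on these arrays, and probes near background cannot show a lower level.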
